A study of Oryza sativa Indica Group with 27 samples.

Results

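The genes described here are 4 rice ion transport genes: the potassium channels AKT1, KCO1 and KCO2 and the sodium transporter HKT1;5. They were found by gene symbol or synonym, with or without the Os prefix, in the array annotation, with AKT1 taken as the gene LOC4326245. Each of the 4 genes had 1 probe set, out of 57194 probe sets tested and 17905 genes represented.

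Plants hold cytosolic potassium high and sodium low, and salt disturbs both. AKT1 is a Shaker-type inward-rectifying channel of the plasma membrane through which roots take up potassium; in rice it is switched on by the kinase CIPK23 together with the calcium sensor CBL1. KCO1 and KCO2, also called TPKa and TPKb, are tandem-pore potassium channels of vacuolar membranes. HKT1;5, also known as SKC1, sits in the cells around the xylem and takes sodium back out of the sap before it reaches the shoot; the locus was first mapped in a cross with Nona Bokra.

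Whole seedlings of 3 indica cultivars were profiled on 27 Affymetrix rice arrays, in 9 groups of 3 biological replicates. Nonabokra and Pokkali tolerate salt, and IR29 is the susceptible cultivar. All seedlings were 7 days old and hydroponically grown; one group of each cultivar then stayed in growth medium for 6 h as the unstressed control, and the other two were placed in 200 mM NaCl for 3 h or for 6 h. The 3 h groups have no control harvested at their own hour, and the salt solution replaced the growth medium. For the 3 h groups one label field names drought; every other field and the protocol name salt, which was followed here. The labels do not say how many seedlings went into a replicate.

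The values are array intensities on a linear scale, with arbitrary units. Array medians lay between 7.09 and 7.77, and between 28.8% and 29.7% of probe sets exceeded 100 on each array. Each array correlated with the others of its group at a mean r of 0.99576 to 0.99894. The lowest 3 were replicate 3 of unstressed Nonabokra, replicate 1 of Nonabokra at 6 h and replicate 1 of IR29 at 6 h. Most changes and differences of the 4 genes that use these arrays are given with and without them. Differences were tested on log2(intensity + 16) with limma, 1 mean per group over all 27 arrays, and p-values were adjusted by the Benjamini-Hochberg method over all 57194 probe sets. "Rose" and "fell" mean an adjusted p under 0.05. On this scale the change of a dim gene is understated, so the ratio of mean intensities is given as well for many of the changes. Levels of different genes are not compared, because each is read by its own probes.

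AKT1 was lower in salt in all 3 cultivars by 6 h, but at 3 h it had fallen in Pokkali and IR29 and not detectably in Nonabokra. The unstressed Nonabokra arrays read 224, 248 and 252, and the 3 h arrays read 218, 239 and 220. These 2 groups overlapped, and the change was -0.09 ± 0.06 (SE, n = 3 arrays a group), with a 95% confidence interval of -0.22 to 0.04 and a limma adjusted p of 0.444, or -0.06 ± 0.07 without the 3 arrays that stand apart. At 6 h the Nonabokra arrays read 101, 102 and 104, all below every unstressed array. AKT1 had fallen by 1.12 ± 0.06 on the log2 scale, a mean 2.35 times lower (limma adjusted p = 2.57e-11). Without the 3 arrays that stand apart, this change was -1.08 ± 0.08 (limma adjusted p = 2.61e-08). Between 3 h and 6 h alone the Nonabokra level fell by 1.03 ± 0.06 (limma adjusted p = 1.61e-10), and by 1.02 ± 0.07 without them.

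In Pokkali, AKT1 read 366, 387 and 405 in unstressed seedlings, 183, 182 and 205 at 3 h, and 159, 162 and 181 at 6 h. Both salt groups lay far below the unstressed arrays and close to each other. The changes were -0.97 ± 0.06 at 3 h (limma adjusted p = 1.58e-10) and -1.14 ± 0.06 at 6 h (limma adjusted p = 2.54e-11), which are mean ratios of 2.03 and 2.31. From 3 h to 6 h the difference was -0.17 ± 0.06 with an interval of -0.30 to -0.04, and it missed the threshold at a limma adjusted p of 0.0529.

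The largest AKT1 falls were those of IR29, which also had the highest unstressed level. Its arrays read 495, 424 and 443 without salt, 115, 127 and 133 at 3 h, and 106, 109 and 105 at 6 h. All 6 salt arrays were far below the lowest unstressed one. AKT1 changed by -1.74 ± 0.06 at 3 h (a mean 3.63 times lower, limma adjusted p = 2.75e-14) and -1.94 ± 0.06 at 6 h (4.26 times lower, limma adjusted p = 9.66e-15). The 6 h change was -1.93 ± 0.07 without the 3 arrays that stand apart. The further change from 3 h to 6 h was -0.20 ± 0.06 (limma adjusted p = 0.0373), and it no longer passed without those arrays (adjusted p = 0.108), in the fit to its 2 groups alone (adjusted p = 0.125) or in 5 of 6 fits that each left out 1 array of its groups. The AKT1 probe set carries the array maker's _x_at suffix, which marks probes that may also match other sequences.

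**Figure D1:**
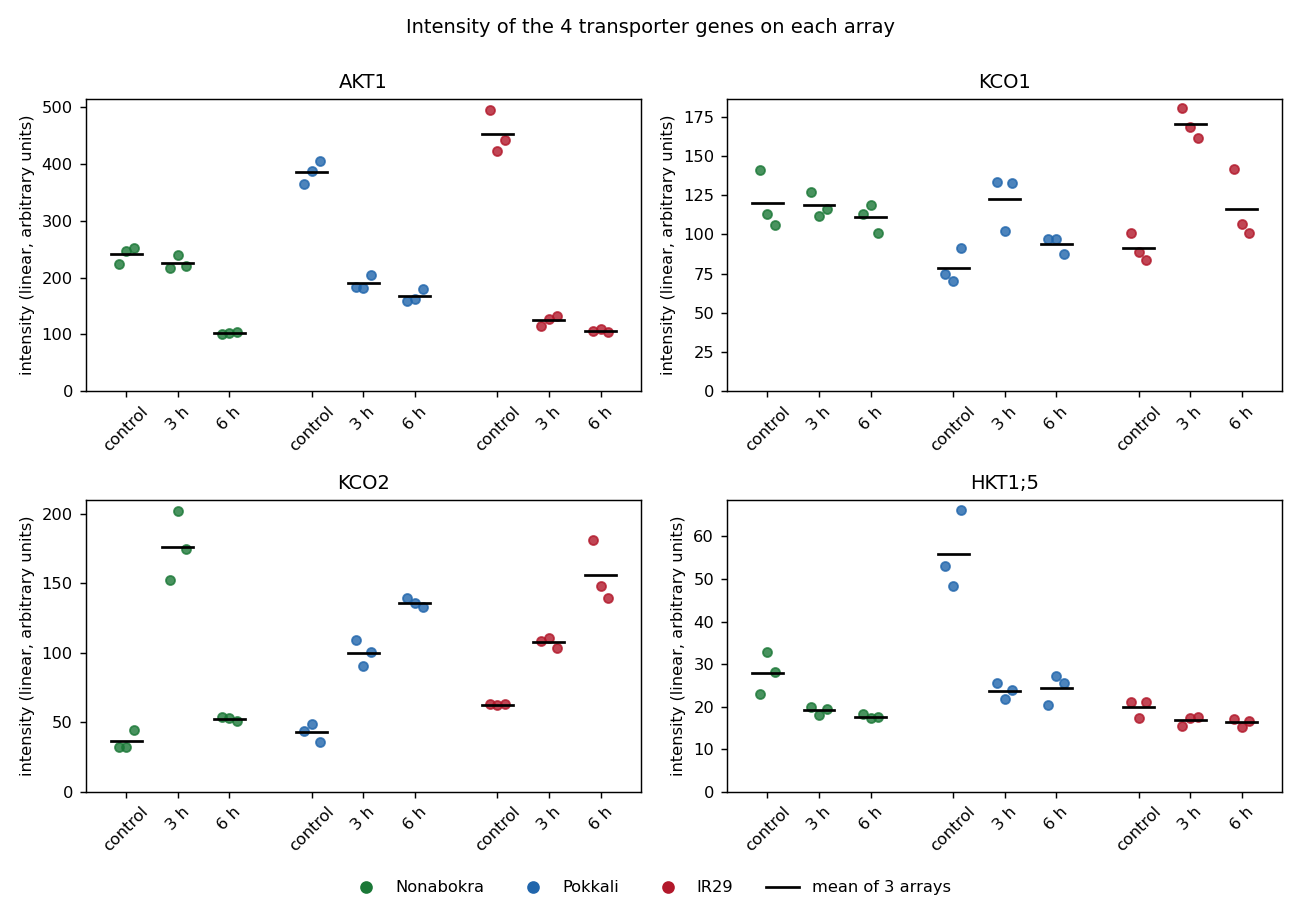
Intensity (linear scale, arbitrary units) of AKT1, KCO1, KCO2 and HKT1;5 on each of the 27 arrays, by cultivar and time in 200 mM NaCl; points are arrays, in replicate order from left to right, and black lines are means of 3. AKT1 spans means of 241 to 454 in unstressed seedlings and 102 to 167 at 6 h, while KCO2 in Nonabokra peaks at 3 h and HKT1;5 is highest in unstressed Pokkali.

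Without salt, the AKT1 level followed the order IR29, Pokkali, Nonabokra, with means of 454 ± 36.8, 386 ± 19.9 and 241 ± 15 (SD, n = 3). All 3 differences passed: Nonabokra was lower than IR29 by a log2 difference of -0.87 ± 0.06 and lower than Pokkali by -0.65 ± 0.06, and Pokkali was lower than IR29 by -0.22 ± 0.06 (limma adjusted p = 1.36e-09, 1.12e-07 and 0.00601). The last missed the threshold in the fit to its 2 groups alone (adjusted p = 0.0877), and without the 3 arrays that stand apart the 2 Nonabokra differences were -0.90 and -0.68. At 6 h of salt the means were 107 ± 2.31 in IR29, 167 ± 12 in Pokkali and 102 ± 1.22 in Nonabokra. The 6 h levels of IR29 and Nonabokra did not differ past the threshold (limma adjusted p = 0.665), although their arrays did not overlap. The difference was -0.05 ± 0.06 for Nonabokra minus IR29, and its adjusted p was 0.686 with the replicate number as a block in these 2 groups, whose same-numbered arrays deviated together. In the order of all 9 groups the other neighbours that did not differ past the threshold were unstressed and 3 h Nonabokra, and Pokkali at 3 h and 6 h.

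The size of the AKT1 change differed between cultivars. At 3 h the IR29 change was more negative than the Nonabokra change by 1.65 ± 0.09 log2 units and than the Pokkali change by 0.77 ± 0.09 (limma adjusted p = 3.16e-11 and 1.95e-06). At 6 h these differences were 0.82 ± 0.09 and 0.80 ± 0.09 (limma adjusted p = 1.14e-06 and 1.56e-06). For Nonabokra and IR29 the levels reached at 6 h did not differ past the threshold, while the unstressed levels did. The tolerant cultivars differed from each other at 3 h, by 0.88 ± 0.09 (limma adjusted p = 4.55e-07). At 6 h their difference was 0.02 ± 0.09, with an interval of -0.17 to 0.21 (limma adjusted p = 0.924). Leaving out the arrays that stand apart, the Nonabokra minus IR29 differences were 1.68 and 0.85, the Pokkali minus IR29 difference at 6 h was 0.80, and those of Nonabokra minus Pokkali were 0.91 and 0.06. The comparisons of one cultivar at 3 h and 6 h share its unstressed arrays, and so do comparisons that share a cultivar.

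KCO2, a vacuolar potassium channel, was the one gene of the 4 that rose in every cultivar at both times, by the test over all 27 arrays, and in all 6 comparisons the salt arrays lay above every unstressed array. The times of its highest level differed. In Nonabokra it read 32.3, 32.0 and 44.1 without salt, 152, 202 and 174 at 3 h, and 53.5, 53.2 and 50.6 at 6 h. Its rise was thus high at 3 h and small at 6 h, at 1.88 ± 0.10 (a mean 4.87 times higher, limma adjusted p = 7.49e-12) and 0.40 ± 0.10 (1.45 times, limma adjusted p = 0.00592). The step from 3 h to 6 h was -1.48 ± 0.10 (limma adjusted p = 9.92e-10). Without the 3 arrays that stand apart the rises were 1.99 ± 0.09 and 0.50 ± 0.10, and the step was -1.49 ± 0.09. The 6 h rise missed the threshold in the fit to its 2 groups alone (adjusted p = 0.0792).

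In Pokkali the KCO2 arrays read 44.0, 48.3 and 35.4 without salt, 109, 90.2 and 101 at 3 h, and 139, 135 and 133 at 6 h. Those of IR29 read 62.7, 62.3 and 62.8, then 108, 111 and 103, then 181, 148 and 139. In both cultivars the 6 h arrays were above all 3 h arrays, the opposite order to Nonabokra. Pokkali rose by 0.99 ± 0.10 and then 1.38 ± 0.10 against its control (limma adjusted p = 1.59e-07 and 1.98e-09), and the 6 h level exceeded the 3 h level by 0.39 ± 0.10 (limma adjusted p = 0.00802). IR29 rose by 0.65 ± 0.10 and then 1.12 ± 0.10 (limma adjusted p = 4.08e-05 and 5.27e-08), with a 6 h level 0.47 ± 0.10 above that at 3 h (limma adjusted p = 0.0026). Without the 3 arrays that stand apart the IR29 rise at 6 h was 1.02 ± 0.09 (limma adjusted p = 3.28e-07) and its step 0.37 ± 0.09 (limma adjusted p = 0.0114). The step missed the threshold in the fit to its 2 groups alone (adjusted p = 0.0783).

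The KCO2 change of Nonabokra accordingly exceeded that of IR29 at 3 h, by 1.23 ± 0.15, and was smaller at 6 h, by a difference of -0.72 ± 0.15 (limma adjusted p = 2.4e-06 and 0.00126). They were 1.34 ± 0.13 and -0.53 ± 0.14 without the 3 arrays that stand apart (limma adjusted p = 5.38e-07 and 0.014). Against Pokkali the differences were 0.89 ± 0.15 at 3 h and -0.98 ± 0.15 at 6 h (limma adjusted p = 0.000159 and 5.25e-05), or 1.00 and -0.89 without those arrays. Pokkali and IR29 did not differ past the threshold, at 0.34 ± 0.15 (interval 0.04 to 0.64, limma adjusted p = 0.0605) and 0.26 ± 0.15 (interval -0.04 to 0.56, limma adjusted p = 0.335). Without the 3 arrays, the 6 h difference was 0.36 (adjusted p = 0.0689), and, although none of the 3 belongs to its groups, the 3 h difference of 0.34 passed at an adjusted p of 0.0275. Unstressed KCO2 was highest in IR29, at 62.6 ± 0.267, against 42.6 ± 6.58 in Pokkali and 36.2 ± 6.91 in Nonabokra (SD, n = 3; limma adjusted p = 0.00202 and 0.00014). Those last 2 did not differ past the threshold, at -0.17 ± 0.10 for Nonabokra minus Pokkali (adjusted p = 0.386). They did without the 3 arrays, at -0.28 ± 0.09 (adjusted p = 0.0477), and Nonabokra minus IR29 went from -0.60 to -0.71. At the top of the order of 9 groups, Nonabokra at 3 h did not differ past the threshold from IR29 at 6 h, nor IR29 at 6 h from Pokkali at 6 h. Pokkali at 6 h was above its next neighbour, IR29 at 3 h, by 0.30 ± 0.10 (limma adjusted p = 0.0342).

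**Figure D2:**
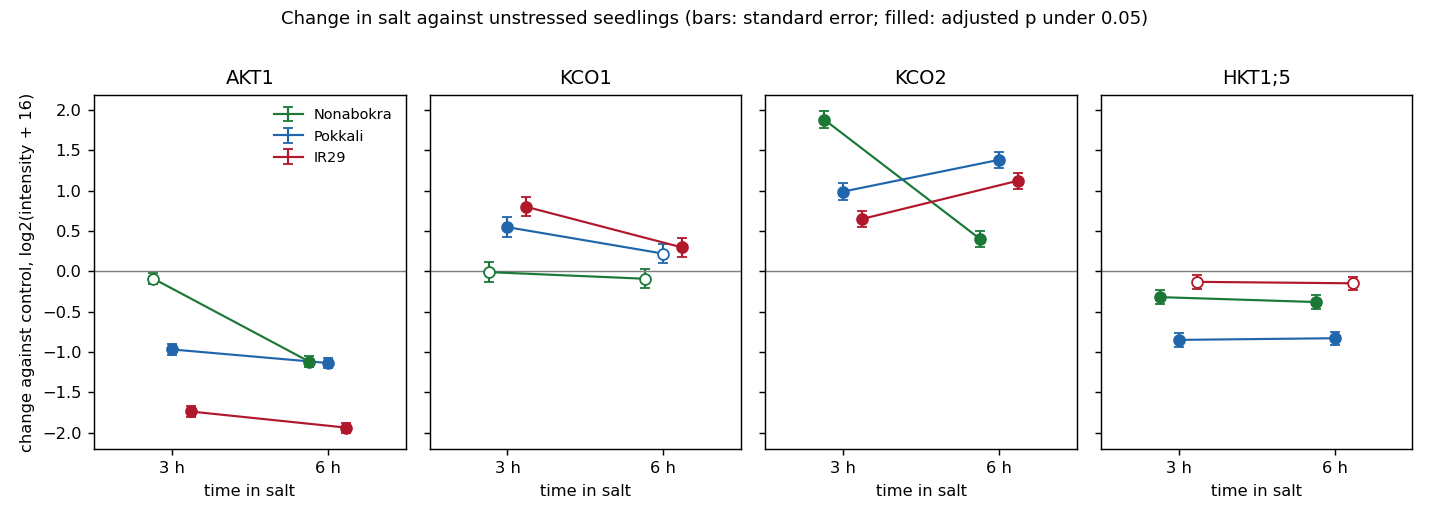
Change against the unstressed seedlings of the same cultivar, in log2(intensity + 16), after 3 h and 6 h in salt; points are limma estimates from 3 arrays a group, bars are standard errors, and filled points have an adjusted p under 0.05. AKT1 in Nonabokra goes from -0.09 to -1.12, and KCO2 in Nonabokra from 1.88 to 0.40 while it goes up in Pokkali and IR29.

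KCO1, the other vacuolar channel, rose at 3 h in Pokkali and IR29, and no change was detected in Nonabokra. The Nonabokra arrays read 141, 113 and 106 without salt, 127, 112 and 116 at 3 h, and 113, 119 and 101 at 6 h. All 3 groups overlapped, with changes of -0.01 ± 0.12 (interval -0.26 to 0.24) and -0.09 ± 0.12 (interval -0.34 to 0.16), at limma adjusted p-values of 0.972 and 0.714. The changes were -0.08 ± 0.12 and -0.18 ± 0.13 without the 3 arrays that stand apart. In Pokkali the readings were 74.6, 70.1 and 91.6, then 133, 102 and 133, then 96.9, 97.2 and 87.7. The 3 h rise there was 0.55 ± 0.12 (a mean 1.56 times higher, limma adjusted p = 0.00129), which missed the threshold in the fit to the 2 groups alone (adjusted p = 0.0541). At 6 h the arrays overlapped with the controls, and the change was 0.22 ± 0.12 (interval -0.03 to 0.47, limma adjusted p = 0.176).

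In IR29, KCO1 read 101, 88.6 and 83.8 without salt, 181, 169 and 161 at 3 h, and 142, 107 and 101 at 6 h, and its 3 h group stood clear of the other two. It was higher than the control by 0.80 ± 0.12 (a mean 1.87 times, limma adjusted p = 2.2e-05), and the level fell by 0.50 ± 0.12 between 3 h and 6 h (limma adjusted p = 0.00573). That step was -0.64 ± 0.12 without the 3 arrays that stand apart (adjusted p = 0.00113), and it missed the threshold in the fit to its 2 groups alone (adjusted p = 0.13). The 6 h rise of 0.30 ± 0.12 passed narrowly (limma adjusted p = 0.0442), with overlapping arrays. It missed the threshold in 4 of 6 fits that each left out 1 array, and without replicate 1 at 6 h the value was 0.16 (adjusted p = 0.254), as it was without the 3 arrays (adjusted p = 0.25). The Pokkali change between 3 h and 6 h, -0.33 ± 0.12, was as narrow (limma adjusted p = 0.0482) and missed the threshold in 5 of 6 fits that each left out 1 of its arrays.

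The KCO1 change at 3 h was smaller in Nonabokra than in IR29 by a difference of -0.81 ± 0.17, and smaller than in Pokkali by -0.56 ± 0.17 (limma adjusted p = 0.00156 and 0.0344). The second of these missed the threshold in 7 of 12 fits that each left out 1 array. Both passed without the 3 arrays that stand apart, at -0.88 and -0.63 (limma adjusted p = 0.000554 and 0.0108). Pokkali and IR29 were not told apart, at -0.25 ± 0.17 (interval -0.61 to 0.10, limma adjusted p = 0.225). None of the 3 differences at 6 h passed, with values from -0.39 to -0.08, or from -0.40 to 0.06 without the 3 arrays. Unstressed KCO1 was higher in Nonabokra, at 120 ± 18.8, than in IR29, at 91.1 ± 8.84, or Pokkali, at 78.8 ± 11.3 (SD, n = 3; limma adjusted p = 0.0232 and 0.00296); the first of these was lost in 3 of 6 fits that left out 1 array. These differences were 0.34 and 0.52, or 0.41 and 0.59 without the 3 arrays, and both missed the threshold in fits to the 2 groups alone (adjusted p = 0.114 and 0.0853). Between Pokkali and IR29 it was -0.18 ± 0.12 (limma adjusted p = 0.205). In the order of 9 groups IR29 at 3 h exceeded Pokkali at 3 h, and no neighbours below that differed past the threshold.

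HKT1;5 was dim on all arrays, between 15.2 and 66.1, and between 59.5% and 66.5% of probe sets lay below its group means. That rank does not show that it was detected, as no detection calls were used. How far its dim levels in IR29 could still fall was not tested. It was highest in unstressed Pokkali and fell there and in Nonabokra. In Pokkali the arrays read 53.0, 48.4 and 66.1 without salt, 25.5, 21.8 and 23.8 at 3 h, and 20.4, 27.2 and 25.5 at 6 h. Every salt array was below every unstressed one, and the salt groups overlapped with each other. The changes were -0.85 ± 0.08 (a mean 2.36 times lower, limma adjusted p = 6.64e-08) and -0.83 ± 0.08 (2.29 times lower, limma adjusted p = 1.54e-07). From 3 h to 6 h the difference was 0.02 ± 0.08 (interval -0.15 to 0.19, limma adjusted p = 0.867).

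In Nonabokra the sodium transporter read 22.8, 32.9 and 28.1 without salt, 19.8, 18 and 19.4 at 3 h, and 18.1, 17.3 and 17.4 at 6 h. No salt array reached an unstressed one, and the changes were -0.32 ± 0.08 and -0.38 ± 0.08 (mean ratios of 1.46 and 1.59, limma adjusted p = 0.00499 and 0.00149). They were -0.31 ± 0.10 and -0.39 ± 0.11 without the 3 arrays that stand apart (limma adjusted p = 0.0245 and 0.0165), and both missed the threshold in fits to the 2 compared groups alone. In IR29 the arrays read 21.1, 17.4 and 21.1, then 15.5, 17.3 and 17.6, then 17.2, 15.2 and 16.7. Here the changes were -0.13 ± 0.08 (interval -0.30 to 0.04) and -0.15 ± 0.08 (interval -0.32 to 0.03), at limma adjusted p-values of 0.181 and 0.143. The 3 h arrays overlapped with the unstressed ones and the 6 h arrays did not, and without the 3 arrays the 6 h change was -0.17 ± 0.10 (adjusted p = 0.17). The unstressed IR29 mean of 19.9 was close to the Nonabokra means in salt, 19.1 and 17.6.

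Unstressed HKT1;5 averaged 55.8 ± 9.21 in Pokkali, 27.9 ± 5.04 in Nonabokra and 19.9 ± 2.17 in IR29 (SD, n = 3). The log2 difference was 1.00 ± 0.08 for Pokkali minus IR29 and -0.71 ± 0.08 for Nonabokra minus Pokkali (limma adjusted p = 6.57e-09 and 1.38e-06). The ratio of means was 2.81 for Pokkali over IR29 and 2.00 for Pokkali over Nonabokra. Nonabokra exceeded IR29 by 0.29 ± 0.08 (limma adjusted p = 0.00801), which missed the threshold after quantile normalization, at 0.23, without replicate 2 of unstressed Nonabokra, and in the fit to the 2 groups alone (adjusted p = 0.111). Without the 3 arrays that stand apart it was 0.28 ± 0.10 (adjusted p = 0.0289), and Nonabokra minus Pokkali was -0.71. In the order of 9 groups, unstressed Pokkali was above its neighbour, unstressed Nonabokra, and no other neighbours differed past the threshold. The Pokkali change was more negative than that of IR29, by -0.72 ± 0.12 at 3 h and -0.68 ± 0.12 at 6 h (limma adjusted p = 0.000122 and 0.000299). It was also more negative than that of Nonabokra, by 0.53 ± 0.12 and 0.45 ± 0.12 (limma adjusted p = 0.00328 and 0.0117). The unstressed levels of IR29 and Nonabokra were dimmer than that of Pokkali, so this scale understates their changes more. With those arrays left out, Pokkali minus IR29 at 6 h was -0.66, and Nonabokra minus Pokkali was 0.54 and 0.44 (adjusted p = 0.011 and 0.0483); the last missed the threshold in the fit to its 4 groups alone (adjusted p = 0.119). Nonabokra and IR29 were not told apart, at -0.19 ± 0.12 (interval -0.43 to 0.06) and -0.23 ± 0.12 (interval -0.48 to 0.01), with limma adjusted p-values of 0.211 and 0.179, and at -0.18 and -0.22 without the 3 arrays.

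**Figure D3:**
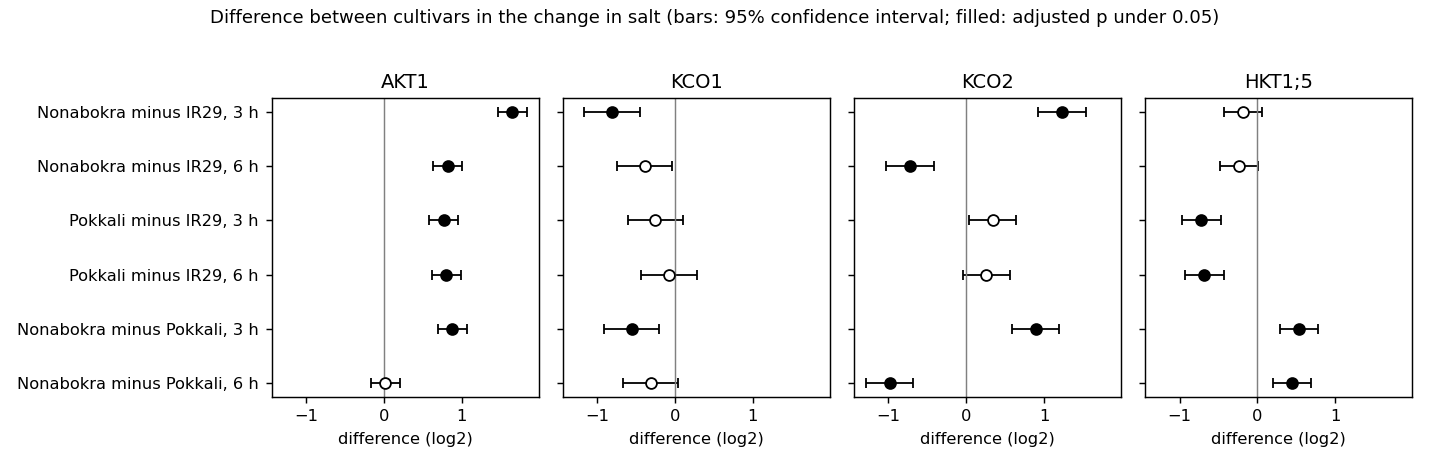
Difference between cultivars in the change against control, in log2 units, at 3 h and 6 h; points are limma estimates, bars are 95% confidence intervals, and filled points have an adjusted p under 0.05. AKT1 lies right of 0 in both comparisons with IR29, KCO2 changes side between 3 h and 6 h in both comparisons of Nonabokra, and HKT1;5 is filled in the 4 comparisons that involve Pokkali.

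Many probe sets changed in salt, and the 4 genes are to be read against that. The shares below are over all probe sets, and between 59.5% and 84.5% of these lay below the group means of the 4 genes. Shares among probe sets of like intensity were not computed. In Nonabokra 2 of 4 passed at 3 h and 3 of 4 at 6 h, where 28% and 22.4% of all probe sets passed. In Pokkali all 4 passed at 3 h and 3 at 6 h, against 25.2% and 22.3% of probe sets. In IR29 it was 3 and 3, against 64% and 53.4%, so as deposited the count for IR29 is near the background. This background depends on scaling: after quantile normalization 20236 probe sets passed at 3 h and 15224 at 6 h, where KCO1 no longer passed at 6 h. Of the steps from 3 h to 6 h, 2 of 4 passed in Nonabokra, 2 in Pokkali and 3 in IR29 (21.1%, 28.2% and 14.8% of probe sets). Between unstressed cultivars 4 of 4 passed for Nonabokra against IR29, 3 for Pokkali against IR29 and 3 for Nonabokra against Pokkali (56%, 61.9% and 19.4%).

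For the differences between responses, those of Nonabokra and IR29 passed in 3 of 4 genes at 3 h and 2 at 6 h (25.4% and 16.2% of probe sets). For Pokkali and IR29 it was 2 at each time (46.9% and 12.8%), and for Nonabokra and Pokkali 4 at 3 h and 2 at 6 h (12.7% and 13.7%). The direction of the calls over all probe sets in IR29 depends on scaling. At 3 h 15.7% of probe sets were higher and 48.2% lower as deposited, 44.9% and 15.1% after median centring, and 14.4% and 21% after quantile normalization. At 6 h these pairs were 12% and 41.4%, 26.8% and 12.1%, and 10.6% and 16%. The 4 genes kept the sign of every called change under both scalings.

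Because whole seedlings were used, fewer cells of a type and less RNA per cell cannot be told apart. Root-expressed genes were therefore set beside AKT1 and HKT1;5. Of 11 root markers listed, 7 were measured, and their summed intensity was 7802 to 8677 in unstressed Nonabokra, 2480 to 2611 at 3 h and 5613 to 6231 at 6 h. It was 5027 to 5217, 1330 to 1532 and 2930 to 3113 in Pokkali, and 9265 to 10241, 703 to 761 and 1921 to 2423 in IR29. The sum was lowest at 3 h in every cultivar.

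The sum was carried by the silicon transporters NIP2-1 and LSI2. NIP2-1, the silicon influx channel, fell in all 6 comparisons, with changes of -2.12 and -0.92 in Nonabokra, of -1.99 and -0.84 in Pokkali and of -4.41 and -2.66 in IR29, the earlier time first. LSI2, the silicon efflux transporter, changed by -1.55 and -0.05 (not called, adjusted p = 0.849) in Nonabokra, by -3.26 and -1.18 in Pokkali and by -3.61 and -2.29 in IR29.

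Among the 7 markers, 4 rose and 2 fell at 3 h in Nonabokra, and 4 rose and 1 fell at 6 h, where 13% and 14.9%, then 10.2% and 12.2% of all probe sets rose and fell. In Pokkali 1 rose and 3 fell, then 3 rose and 2 fell (11.8% and 13.4%, then 10.1% and 12.1% of all probe sets). In IR29 none rose and 6 fell at 3 h, and none rose and 5 fell at 6 h (15.7% and 48.2%, then 12% and 41.4%). After median centring the IR29 falls were 6 and 4, with 15.1% and 12.1% of all probe sets lower. The median change of the 7 was 0.67 and 0.43 in Nonabokra, -0.37 and -0.11 in Pokkali, and -1.47 and -0.66 in IR29, beside medians of all probe sets within 0.01 of 0. For probe sets with a mean intensity of at least 100 the medians were between -0.02 and 0.05.

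AMT1;2, an ammonium transporter, rose by 0.71 and 1.56 in Nonabokra, from a mean of 223 to 374 and 687. It changed by -0.37 and 1.08 in Pokkali, and by -0.89 and -1.45 in IR29, all called. IRT1, an iron transporter, changed by -2.62 in IR29 at 3 h, from 512 to 70, and by -0.35 at 6 h, both called. It rose in Nonabokra by 0.66 and 0.64, from a dim 12.3, and did not pass in Pokkali. PT2, a phosphate transporter, rose by 0.73 and 0.43 in Nonabokra, changed by 0.16 (not called, adjusted p = 0.536) and 0.51 in Pokkali, and fell in IR29, with -1.47 and -0.66. CASP1, of the Casparian strip of the root endodermis, changed by 0.70 and 0.67 in Nonabokra, 0.97 and 0.45 in Pokkali, and -0.82 (all called) and -0.09 (not called, adjusted p = 0.379) in IR29. These are the values of the brightest CASP1 probe set; the other 2 did not pass in Nonabokra or at 6 h in Pokkali. NRT2.3, a nitrate transporter, was near the floor, with group means from 6.44 to 22.2, and passed in none. The markers thus moved in both directions in the tolerant cultivars. At 3 h AKT1 changed by -0.09 (not called) in Nonabokra, where the marker median was 0.67, and by -0.97 in Pokkali, where it was -0.37. At 6 h AKT1 changed by -1.12 and -1.14 in these cultivars, beside marker medians of 0.43 and -0.11. The markers called in IR29 fell, as AKT1 did. What part root RNA had in these results was not tested.

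Of 12 green tissue markers listed, RCA and CAB2R were measured. Their sum averaged 52249, 54965 and 49876 in Nonabokra in the order control, 3 h and 6 h, 51680, 56163 and 52048 in Pokkali, and 49807, 58106 and 59687 in IR29. RCA, which encodes Rubisco activase, rose in IR29 by 0.65 and 0.46 on its brightest probe set, from a mean of 15192 to 23796 and 20890. It changed by 0.36 and -0.42 in Nonabokra, both called, and by 0.74 and 0.12 (not called, adjusted p = 0.331) in Pokkali. CAB2R, a chlorophyll-binding protein gene, passed only in IR29 at 6 h, with a rise by 0.16; its other probe set passed only in Nonabokra at 6 h, with a fall by 0.23. The mean green sum was thus higher in salt in IR29 at both times and in Pokkali and Nonabokra at 3 h, with overlapping arrays in Nonabokra. At 6 h it was near the control in Pokkali and below it in Nonabokra. The root sum was lower in salt in every cultivar at both times, and the part of this in the results was not tested.

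**Figure D4:**
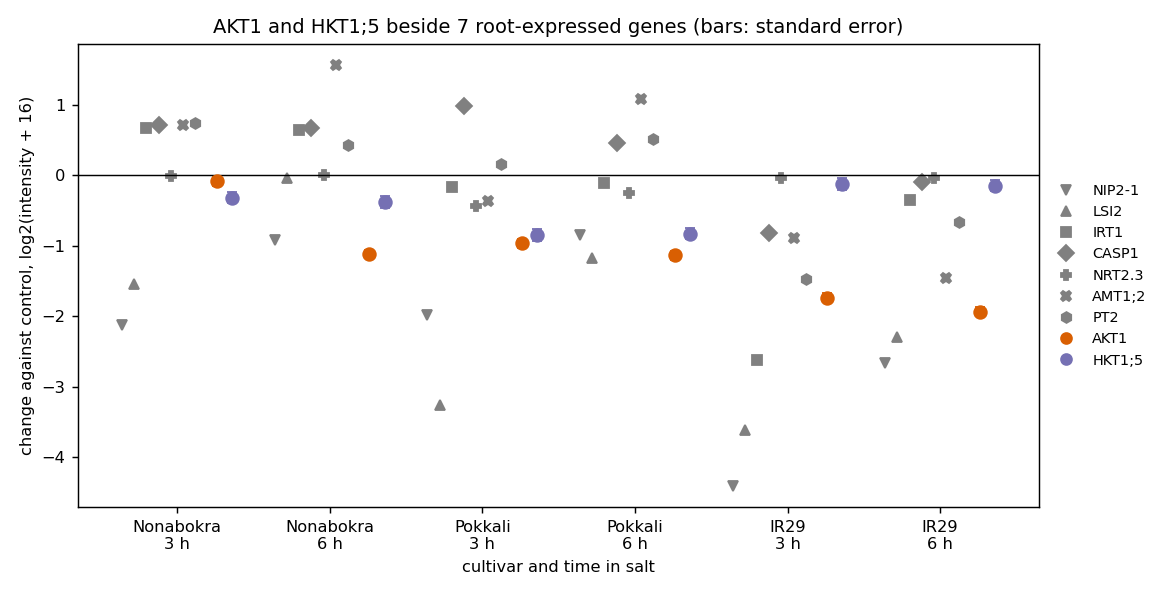
Change against control, in log2(intensity + 16), of AKT1 and HKT1;5 (coloured, with standard errors) beside 7 root-expressed genes (grey) in each cultivar at 3 h and 6 h of salt. In IR29 no grey point lies above 0, while in Nonabokra and Pokkali several do. AKT1 lies at -0.09 and -0.97 in these 2 cultivars at 3 h, and at -1.12 and -1.14 at 6 h.

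Probe sets for controls are given as values, with no test. The 12 probe sets for added poly-A RNAs had group means of 8.73 to 9.04 on the log2 scale in unstressed groups, 8.25 to 8.43 at 3 h and 7.15 to 7.47 at 6 h. The 9 probe sets for hybridisation spikes had group means of 10.46 to 10.54, 10.32 to 10.57 and 10.64 to 11.18. The 18S ribosomal RNA probe set averaged 2492 in unstressed IR29, 22.8 after 3 h and 97 after 6 h. It averaged 373.5, 383 and 316.2 in Nonabokra, and 1105, 807 and 186 in Pokkali. Its SD on the log2 scale was 1.81, 2.09 and 1.87 in Nonabokra and 1.94, 2.68 and 0.94 in Pokkali. In IR29 the SD was 0.56, 0.40 and 1.38. The part of the control probe sets in the results was not tested.

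Other genes of potassium and sodium transport were read from listed families. Among 22 measured HAK potassium transporters of 27 listed, which are another route for potassium entry, 7 rose and 6 fell in Nonabokra at 3 h, and 3 rose and 6 fell at 6 h. The shares over all probe sets were 13% and 14.9%, then 10.2% and 12.2%. In Pokkali 6 rose and 6 fell, then 3 rose and 6 fell (11.8% and 13.4%, then 10.1% and 12.1%). In IR29 11 rose and 4 fell at 3 h, and 10 rose and 5 fell at 6 h (15.7% and 48.2%, then 12% and 41.4%). These counts include very small changes near the floor: HAK4, with a mean intensity of 5.70, counts as a fall at both times with changes of -0.011. After median centring the IR29 counts were 14 and 2, then 11 and 3, and after quantile normalization 9 and 3, then 10 and 3. The list median was 0.26 at 3 h and 0.14 at 6 h in IR29, and within 0.03 of 0 elsewhere, where all probe sets had medians within 0.01 of 0. Probe sets with a mean intensity of at least 100 had medians of 0.05 at 3 h and 0.01 at 6 h in IR29.

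HAK27 and HAK7 rose in all 6 comparisons, HAK7 by 0.78 to 1.81 on its brighter probe set; its dimmer one passed in IR29 at 3 h only. HAK27 rose by 1.75 ± 0.08 and 0.75 ± 0.08 in Nonabokra at 3 h and 6 h, 1.43 and 1.16 in Pokkali, and 0.81 and 1.09 in IR29. Its Nonabokra means of 28.8, 135 and 59.2 had the same 3 h peak as KCO2. HAK17 fell in both tolerant cultivars, with changes of -2.94 ± 0.17 and -2.34 ± 0.17 in Nonabokra and -2.12 and -1.99 in Pokkali; in IR29 it was -0.16 at 3 h (limma adjusted p = 0.436) and fell by 0.67 at 6 h, and its other probe set rose by 0.20 at 3 h (limma adjusted p = 0.0205). HAK18 rose in all but Nonabokra at 6 h (0.26, limma adjusted p = 0.0919), by 0.67 to 1.32. HAK16 rose by 1.42 in Nonabokra at 3 h, from a mean of 155 to 445, and was at 120 at 6 h, where its change of -0.35 did not pass (limma adjusted p = 0.07). In IR29 it rose by 0.58 and 0.56, and in Pokkali it did not pass. HAK11 rose in IR29 by 1.14 and 0.71; in the tolerant cultivars it rose at 3 h, by 0.41 and 0.26, and fell at 6 h, with -0.31 and -0.24. HAK13 changed by -0.93 and -0.85 in Nonabokra, -0.26 and -0.16 (not called, adjusted p = 0.121) in Pokkali, and -0.30 and -0.23 in IR29. HAK1, a high-affinity potassium transporter of rice roots, was picked out after its values were seen. It fell in all 6 comparisons, with changes from -0.57 to -0.24, and by its other probe set in 5 of 6, with -0.33 in Pokkali at 6 h (limma adjusted p = 0.0509).

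Calcium sensors and kinases that regulate potassium and sodium transport were measured for 4 of 5 genes listed. Of these, 3 rose and 1 fell in Nonabokra at 3 h and in Pokkali at both times, 2 rose and 1 fell in Nonabokra at 6 h, and in IR29 3 and then 2 rose and none fell. The shares of all probe sets that rose and fell are those beside the HAK counts, from 10.1% to 15.7% for rises, 12.1% to 14.9% for falls in the tolerant cultivars, and 48.2% and 41.4% for falls in IR29. CIPK23, the kinase that activates AKT1, fell in both tolerant cultivars: the change was -0.78 ± 0.08 and -0.94 ± 0.08 in Nonabokra, from a mean of 1575 to 911 and 824, and -0.71 and -1.03 in Pokkali. In IR29 it rose by 0.67 ± 0.08 at 3 h, from 631 to 1011, and changed by -0.04 ± 0.08 at 6 h (limma adjusted p = 0.717). The difference between the 3 h changes of Nonabokra and IR29 was -1.45 (limma adjusted p = 1.12e-08). The second CIPK23 probe set did not show changes of this size: it passed only in Pokkali at 6 h, with a fall by 0.35, its other changes were between -0.12 and 0.01, and its Nonabokra minus IR29 difference at 3 h was -0.10 (limma adjusted p = 0.498).

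CBL10, a calcium sensor of the salt overly sensitive pathway, rose in all 6 comparisons, by 2.04 ± 0.07 (3 h) and 0.46 ± 0.07 (6 h) in Nonabokra, 1.65 and 1.58 in Pokkali, and 0.85 and 1.05 in IR29. CBL4, the sensor also named SOS3, rose by 0.69 and 0.47 in Nonabokra and 1.08 and 1.53 in Pokkali; in IR29 it changed by 0.17 and 0.27 (limma adjusted p = 0.218 and 0.0587). CIPK24, the kinase named SOS2 that works with these sensors, rose in 5 of 6 comparisons, by 0.35 to 1.05, with 0.21 in Nonabokra at 6 h (limma adjusted p = 0.141). Of the other lists, TPC1, a vacuolar cation channel, did not pass in any of the 6 on its brighter probe set, with changes from -0.06 to 0.40. Its other probe set rose by 0.37 in Pokkali at 3 h (limma adjusted p = 0.0346) and fell by 0.38 in IR29 at 6 h (limma adjusted p = 0.0156). The proton pump OSA7 fell in 5 and rose in IR29 at 3 h, by 0.14, on its brighter probe set. The fall in IR29 at 6 h, with -0.15, did not pass after median centring (-0.13) or quantile normalization (-0.10). The dim second OSA7 probe set went the other way in Pokkali, from a mean of 17.1 to 44.7 at 3 h, a rise by 0.87 (limma adjusted p = 0.000204), and 26.5 at 6 h (0.36, limma adjusted p = 0.11), and it passed in no other of the 6. No probe set was matched by name to the 10 other Shaker channels, 8 other HKT transporters and 6 sodium/proton exchangers listed, and these were not analysed here.

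**Figure D5:**
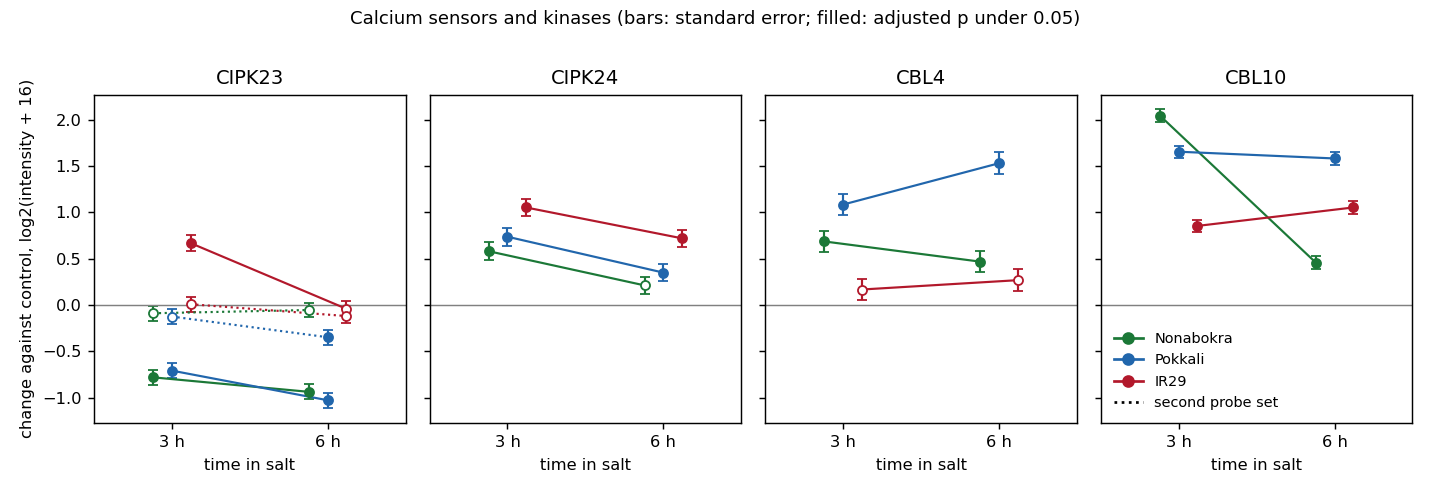
Change against control, in log2(intensity + 16), of CIPK23, CIPK24, CBL4 and CBL10 in the 3 cultivars after 3 h and 6 h in salt; bars are standard errors, filled points have an adjusted p under 0.05, and dotted lines are the second CIPK23 probe set. The brighter CIPK23 probe set is at -1.03 to -0.71 in Nonabokra and Pokkali and at 0.67 in IR29 at 3 h, the second lies between -0.35 and 0.01, and CBL10 in Nonabokra goes from 2.04 to 0.46.

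Genes with the pattern most like each of the 4 were sought among 1008 named genes for AKT1 and 1009 for the others, all with a mean intensity of at least 100 and an SD of group means of at least 0.3, by Pearson's r over the 9 group means; these points share their arrays and the same unstressed groups, and no p is given. For AKT1 they were OsRPT1b, a proteasome subunit gene (r = 0.932), mfs1 (0.905) and OsTUB8, a beta-tubulin gene (0.904). OsTUB8 had unstressed means of 2481, 2660 and 2503 in Nonabokra, Pokkali and IR29, and 1261, 1705 and 1608 at 6 h. KCO2 was most like OsUGE-1, which encodes a UDP-glucose epimerase (0.932), KIN8B (0.927) and ELA3 (0.911). OsUGE-1 means were 691, 4400 and 1348 in Nonabokra in the order control, 3 h and 6 h, with the highest level at 3 h as for KCO2. KCO1 was most like SAT1 (0.883), LAC7 (0.855) and GDH2 (0.848). HKT1;5 was most like LAC3, a laccase gene (0.938), HOX20 (0.930) and OsABCG5 (0.922). Unstressed Pokkali stood out for LAC3 as well, at 1981 against 266 to 538 in the other 8 groups, and Spearman's rho was 0.75. By Spearman's rho the 3 genes nearest AKT1 were the same, and those nearest HKT1;5 were all different. For KCO1, HIP1 took the place of SAT1. For KCO2, KIN8B stayed, and CIPK25 and HSF1 took the places of OsUGE-1 and ELA3; the rho of OsUGE-1 was 0.867.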

How the data were processed

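Total RNA of whole seedlings was labelled with biotin and hybridised to Affymetrix rice arrays, per the labels' protocols. The authors deposited 1 linear intensity per probe set and array, made with GCOS per the submitters' processing notes; the summary and scaling between arrays are not given in the sources used here. No detection calls were used. Of 57381 probe sets, the tests leave out 187 for controls and reporters. The platform annotation names 1 gene for 22436 probe sets, several for 95 and none for 34663. Symbols were updated through the RefSeq gene table.

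Intensities were analysed as log2(intensity + 16) with limma 3.58.1 in R 4.3.3 (lmFit, 1 mean per group, 18 residual degrees of freedom, eBayes, Benjamini-Hochberg). With 3 arrays per group, their number limits the precision. The members and the lists were chosen with earlier results of these data known. Named are all 4 members, up to 4 called genes of largest change per list and salt comparison, and the 3 genes of most similar pattern; TPC1, NRT2.3, HAK1 and HAK5 were added after their values were seen. Same-numbered replicates deviated together (all 3 correlations over 0.1) in 2 of 36 pairs of groups, unstressed Nonabokra and Pokkali, and Nonabokra and IR29 at 6 h; both pairs were compared. This rests on the values alone. Alternatives were other pseudocounts, scalings, filters, spreads, a replicate block and leaving out arrays.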

Additional observations from a re-analysis of the deposited data

Results flagged for a closer look

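These are the changes in salt that differed between cultivars by a test of the difference itself (limma, adjusted over all probe sets), in log2 units with the first cultivar minus the second. For AKT1 the differences were 1.65 at 3 h and 0.82 at 6 h for Nonabokra minus IR29, 0.77 and 0.80 for Pokkali minus IR29, and 0.88 at 3 h for Nonabokra minus Pokkali. The AKT1 levels of Nonabokra and IR29 differed past the threshold when unstressed and not at 6 h. For KCO1 the differences in change were -0.81 for Nonabokra minus IR29 and -0.56 for Nonabokra minus Pokkali, both at 3 h. For KCO2 they were 1.23 at 3 h and -0.72 at 6 h for Nonabokra minus IR29, and 0.89 and -0.98 for Nonabokra minus Pokkali. For HKT1;5 they were -0.72 at 3 h and -0.68 at 6 h for Pokkali minus IR29, and 0.53 and 0.45 for Nonabokra minus Pokkali. The adjusted p was highest, at 0.0344, for KCO1 in Nonabokra minus Pokkali.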

How the results depend on the processing

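No called change turned its sign in any alternative. Of 72 differences, the number that changed side was 2 with a pseudocount of 1, 1 with 64, 6 after quantile normalization, 1 after median centring, 2 without the dimmest 40% of probe sets, 1 with a trended and 1 with a robust spread, 15 in fits to the compared groups alone, and 4 without the 3 arrays that stand apart, an alternative added after seeing the data. With a replicate block, 1 changed: the AKT1 step from 3 h to 6 h in Pokkali, at -0.17 (adjusted p = 0.0418), and no other call. With the block only within the 2 pairs of groups that deviated together, added after seeing the data, none of 20 differences changed side; the 6 h level of AKT1 in Nonabokra minus IR29 stayed at -0.05 (adjusted p = 0.686). That step also passed at -0.18 with a pseudocount of 1, -0.24 after quantile normalization, and -0.17 with the filter or the trended spread. The KCO2 difference of Pokkali minus IR29 at 3 h passed at 0.45 with a pseudocount of 1, 0.51 after quantile normalization and 0.34 without the 3 arrays, where unstressed Nonabokra minus Pokkali passed too, at -0.28. The AKT1 step in IR29 was lost at -0.15 with a pseudocount of 64, -0.16 after quantile normalization and -0.20 without the 3 arrays. KCO1 in IR29 at 6 h was lost at 0.23 after quantile normalization, 0.30 with the filter and 0.16 without the 3 arrays. Quantile normalization also lost unstressed Nonabokra minus IR29 for KCO1, at 0.27, and HKT1;5, at 0.23. The KCO1 step in Pokkali was lost at -0.32 with median centring and -0.33 with a robust spread.

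Fits to the compared groups alone, which hold fewer arrays, lost HKT1;5 in Nonabokra (-0.32 and -0.38), KCO2 in Nonabokra at 6 h (0.40), KCO1 in Pokkali at 3 h (0.55) and IR29 at 6 h (0.30), the steps of KCO1 in Pokkali (-0.33) and IR29 (-0.50), of AKT1 (-0.20) and KCO2 (0.47) in IR29, unstressed Nonabokra minus IR29 for KCO1 (0.34) and HKT1;5 (0.29), Pokkali minus IR29 for AKT1 (-0.22), Nonabokra minus Pokkali for KCO1 (0.52), and 2 differences of Nonabokra minus Pokkali, KCO1 at 3 h (-0.56) and HKT1;5 at 6 h (0.45).

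Leaving out 1 array gave 0.23 to 0.41 for unstressed KCO1 and 0.21 to 0.37 for unstressed HKT1;5 in Nonabokra minus IR29, -0.67 to -0.45 for KCO1 in Nonabokra minus Pokkali at 3 h, 0.25 to 0.41 for KCO2 in Pokkali minus IR29 at 3 h, 0.16 to 0.38 for KCO1 in IR29 at 6 h, and steps of -0.22 to -0.12 for AKT1 and -0.44 to -0.27 for KCO1 in Pokkali and -0.25 to -0.16 for AKT1 in IR29.

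Of all probe sets, 36580 passed in IR29 at 3 h, against 20236 after quantile normalization, 19048 with the filter and 18732 in the compared groups alone. At 6 h it was 30525, against 15224, 13473 and 7160. Unstressed, Nonabokra minus IR29 gave 32034, against 16113, 14739 and 10495, and Pokkali minus IR29 35383, against 18419, 17528 and 14252. The response difference of Pokkali and IR29 at 3 h gave 26842, against 12312, 11788 and 16999. In the compared groups alone, the steps gave 7540 in Nonabokra (12060 in all arrays) and 3515 in IR29 (8458), and the response difference of Nonabokra and IR29 at 6 h 6186 (9286). Leaving out 1 array gave 21206 to 32017 for unstressed Nonabokra minus IR29, 7742 to 16030 for its response difference at 6 h, 18125 to 33040 for IR29 at 6 h and 10549 to 12935 for the Pokkali step (16146 in all arrays). The cause was not tested. The filter leaves out the dimmest 40% of probe sets, so its counts are out of a smaller total than the others. The members have 1 probe set each, so no other probe set could be tried.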

Other observations

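The 2 probe sets named HAK5, for a potassium transporter, differed widely in what they read. The brighter one had group means from 8348 to 13809 and changed by 0.29 in IR29 at 3 h. The dimmer one had means of 11, 129 and 12 in IR29 in the order control, 3 h, 6 h, a rise by 2.42 at 3 h (limma adjusted p = 1.3e-15), and in Nonabokra it changed by -0.40 and -0.48. Which of them reads the HAK5 transcript was not tested.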
